A study of Mus musculus with 5 samples.

Results

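Potassium channel subunit genes were examined in cortical kidney tissue of Fnip1 null and wildtype mice. The members were the genes whose symbol consisted of Kcn, further letters and a final number, with Kcnj1 left out, which gave 91 of the 24421 gene symbols counted. Of the 91 members, 80 had at least 1 count in at least 1 mouse, and 44 passed the filter on low counts and were tested. RNAseq had been carried out on 3 Fnip1 null mice (genotype Fnip1-/-, mice 8637, 9210 and 9121) and 2 wildtype mice (genotype Fnip1+/+, mice 9055 and 9056), all on the C57BL6J background, with 1 library from each mouse. The Fnip1 null mice carried a constitutive mutation that came from a chemical mutagenesis screen, so the loss of Fnip1 was not limited to 1 cell type. The wildtype genotype is that of the sample labels, while the study's text also calls the control mice heterozygous (Fnip1+/-) and gives more control mice than were analysed here, so the control genotype is uncertain. Neither age nor sex was in the sample labels. Fnip1 encodes a partner of Folliculin, the product of the gene mutated in Birt-Hogg-Dube syndrome, and its loss in mice leads to kidney cysts. The comparison asked which potassium channel transcripts differed between Fnip1 null and wildtype kidney tissue.

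Potassium channels let potassium ions pass down their gradient through a pore that 4 pore-forming domains build together. In the nephron, basolateral channels return the potassium that the Na,K-ATPase brings in and so hold the membrane voltage that drives transport of sodium, chloride and bicarbonate, while apical channels release potassium into the urine. Inward rectifiers (Kcnj), 2-pore-domain leak channels (Kcnk), voltage-gated channels (Kcna, Kcnb, Kcnc, Kcnd, Kcnh and Kcnq) and calcium- or sodium-activated channels (Kcnma, Kcnn, Kcnt and Kcnu) form pores of their own. Electrically silent modifiers (Kcnf, Kcng, Kcns and Kcnv) form channels only together with other voltage-gated subunits, and auxiliary subunits (Kcnab, Kcne, Kcnip and Kcnmb) bind to the pore-forming proteins and change their gating or transport to the membrane.

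Between 15799114 and 19132145 reads were counted on genes in a mouse, and 3 counts corresponded to between 0.158 and 0.186 normalized CPM (counts scaled to a common library size after TMM normalization). The targeted gene, Fnip1, was at 21.0, 16.9 and 16.0 normalized CPM in the Fnip1 null mice and at 51.8 and 48.7 in the wildtype mice (log2 fold change -1.48, SE 0.136, adjusted p = 0.0313, edgeR's quasi-likelihood test). Mouse 8637 resembled the wildtype mice more than the other Fnip1 null mice did. Over all genes its correlations of log2(CPM + 1) with the wildtype mice were 0.988 and 0.986, against 0.957 to 0.975 for mice 9210 and 9121. Mouse 9121 had 314 normalized CPM of Xist, a transcript of female cells, against at most 1.41 in the other 4 mice, so the libraries were not of 1 sex. Slc14a2, a urea transporter of the inner medulla, ranged from 0.825 to 99.7 normalized CPM in Fnip1 null and from 1.89 to 81.6 in wildtype mice. The other inner medulla markers varied less, Aqp4 from 25.2 to 65.5 in Fnip1 null and from 31.4 to 37.5 in wildtype mice and Fxyd4 from 9.55 to 19.2 and from 16.9 to 18.6 normalized CPM, and the share of medulla in the tissue was not tested. The summed level of 5 adipocyte markers was 68.4 and 28.2 normalized CPM in mice 9210 and 9121 and at most 4.58 in the other mice.

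The transcripts of a few channels made up most of the summed level of the members, which do not include Kcnj1. Of the 44 members tested, 38 had a mean of at least 1 normalized CPM over the 5 mice and 9 had at least 10. Because longer transcripts give more reads, levels of different genes were compared as normalized CPM per kb of exon. On this scale Kcnj16 (mean level of the 5 mice 195 CPM per kb) and Kcnj15 (188 CPM per kb) stood first, and the leak channel Kcnk5 stood next at 63.1 CPM per kb. Kcnj16 encodes an inward rectifier subunit that carries little current alone and joins the products of Kcnj15 or Kcnj10 in basolateral channels. Kcnk1, Kcnj10, Kcnq1 and Kcne1 formed a second tier with mean levels of 28.9, 25.2, 15.8 and 12.0 CPM per kb. In the wildtype mice Kcnj15, Kcnj16 and Kcnk5 together held 84.8% and 86.2% of the summed level per kb of all members, and in the Fnip1 null mice 8637, 9210 and 9121 they held 83.9%, 73.5% and 66.3%. This share was below both wildtype values in every Fnip1 null mouse, and mouse 8637 was close to them. The group order of neighbours in this ranking was not uniform: Kcnj15 lay above Kcnj16 in both wildtype mice and below it in mice 9210 and 9121.

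**Figure D1:**
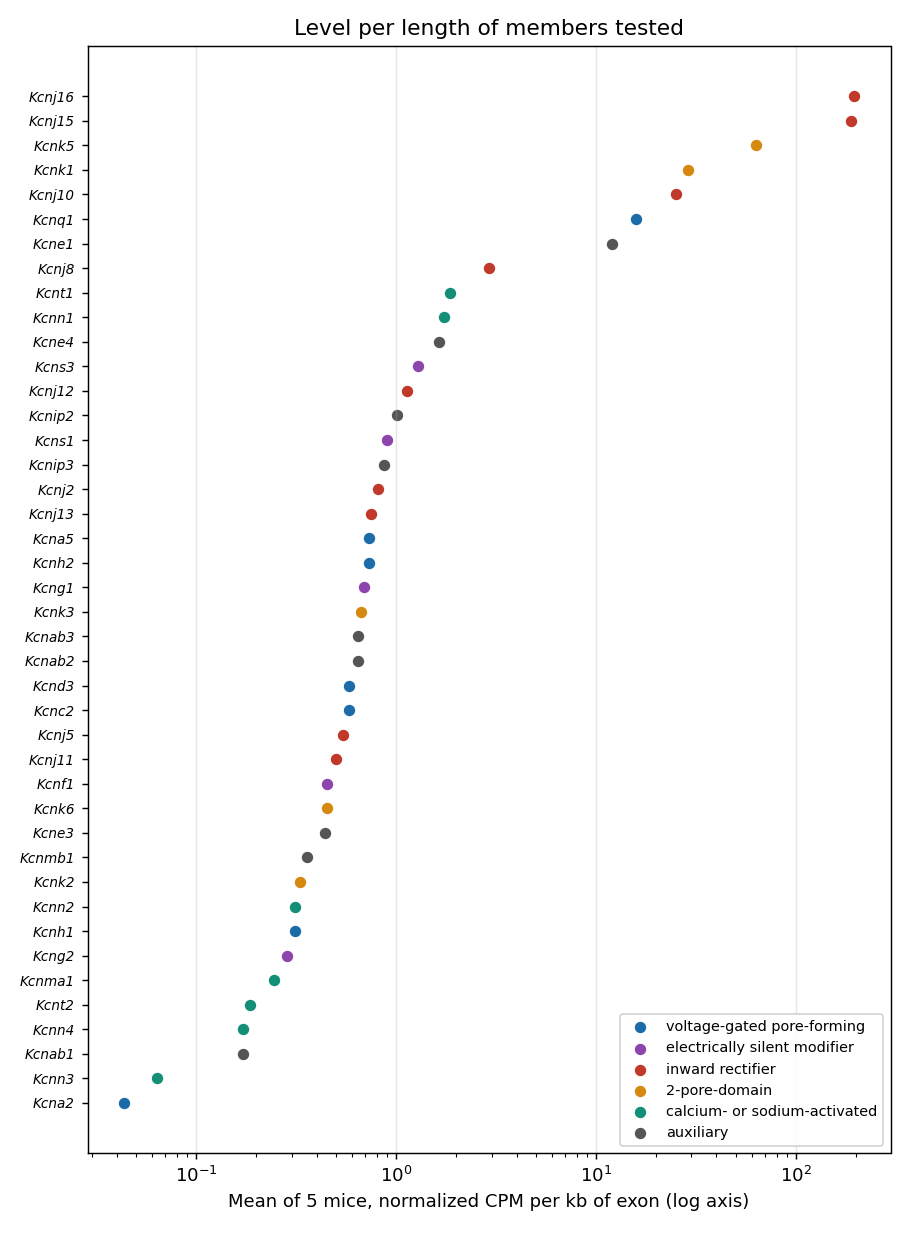
Mean level over the 5 mice of 42 of the 44 members tested, in normalized CPM per kb of exon on a log axis, coloured by subfamily. Kcnj16 and Kcnj15 lie at 195 and 188, 7 members lie at 12.0 or above, and the others shown lie at 2.90 or below.

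Differential expression was called where edgeR's quasi-likelihood test gave an FDR of 5% and the level changed 2-fold or more, and 0 of the 44 members met both criteria or the FDR alone. Over all 13874 genes tested, 0.533% met both criteria and 0.735% passed the FDR alone. The smallest adjusted p among the members was 0.0501, for Kcng1. At an unadjusted p under 0.05, 14 members (31.8% of those tested) were higher in Fnip1 null kidney tissue, against 13.9% of all genes tested, and 6 (13.6%) were lower, against 11.2% of all genes. The 3 Fnip1 null mice all lay above both wildtype mice for 23 members (52.3%; 22.9% of all genes) and all below them for 7 members (15.9%; 23.0% of all genes), so that 30 members had groups without overlap, as had 45.9% of all genes. In 21 of these 30 members (70.0%) mouse 8637 was the Fnip1 null mouse nearest to the wildtype mice, and over all genes this share was 67.6%. A positive log2 fold change was found for 32 members (72.7%), while 50.5% of all genes had one. The median log2 fold change of the members tested was 0.54, beside 0.00 over all genes tested, and single members ran from -2.63 to 2.00. The shift was not equal in the 3 Fnip1 null mice: the median log2 ratio of the members to their wildtype mean was 0.26 in mouse 8637, 0.51 in mouse 9210 and 0.70 in mouse 9121. Markers of several other cell types had higher sums in the Fnip1 null mice as well: the 5 podocyte markers summed to 659 to 773 normalized CPM against 367 and 370 (2 of 5 called), the 5 endothelial markers to 252 to 337 against 140 and 237 (0 of 5), and the 5 T cell markers to 5.95 to 14.4 against 2.17 and 4.97 (0 of 5). Not all sums were higher. The 6 proximal tubule markers summed to 7520 to 9990 normalized CPM against 10200 and 11400. The 4 B cell markers summed to 0.0595 to 0.686 against 2.17 and 2.67. The sums of the 5 macrophage markers overlapped (80.2 to 152 against 92.3 and 101), with 4 of the 5 above both wildtype mice. The part of these cells in the fold changes of the members was not tested. Kcna2 and Kcne3 had fewer than 10 counts in both wildtype mice and entered these counts only through their values in the Fnip1 null mice.

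Other tests on the same counts did pass some members. With edgeR's exact test 8 of the 44 members passed an FDR of 5%, when 9.82% of all genes did, and the same 8 passed it with DESeq2 (10.2% of all genes). They were also among the 10 members that passed it with edgeR's likelihood ratio test (10.6% of all genes). Kcns1, Kcnk3, Kcnip2, Kcnq1, Kcnn1 and Kcnj10 were higher and Kcng1 and Kcnma1 were lower in Fnip1 null kidney tissue. Among them Kcns1, Kcnk3, Kcnip2 and Kcng1 also changed 2-fold or more by the exact test and by DESeq2, which passed 4.11% and 3.47% of all genes at both criteria. Kcna2, a Shaker-type voltage-gated channel, and Kcne3, an auxiliary subunit that holds KCNQ1 channels open, passed only with the likelihood ratio test (4.53% of all genes at both criteria). Both were tested only because of their counts in the Fnip1 null mice. Leaving out mouse 8637 gave 10 members past the FDR with the quasi-likelihood test and 5 at both criteria, when 19.9% and 6.71% of all genes did. Leaving out mouse 9210 gave 0 members with the same test, as it gave 0.0% of all genes. Only Kcng1 passed without mouse 9121, when 0.973% of all genes met both criteria and 1.37% the FDR alone, and again without the filter on low counts, when 0.812% and 1.33% of all genes did.

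**Figure D2:**
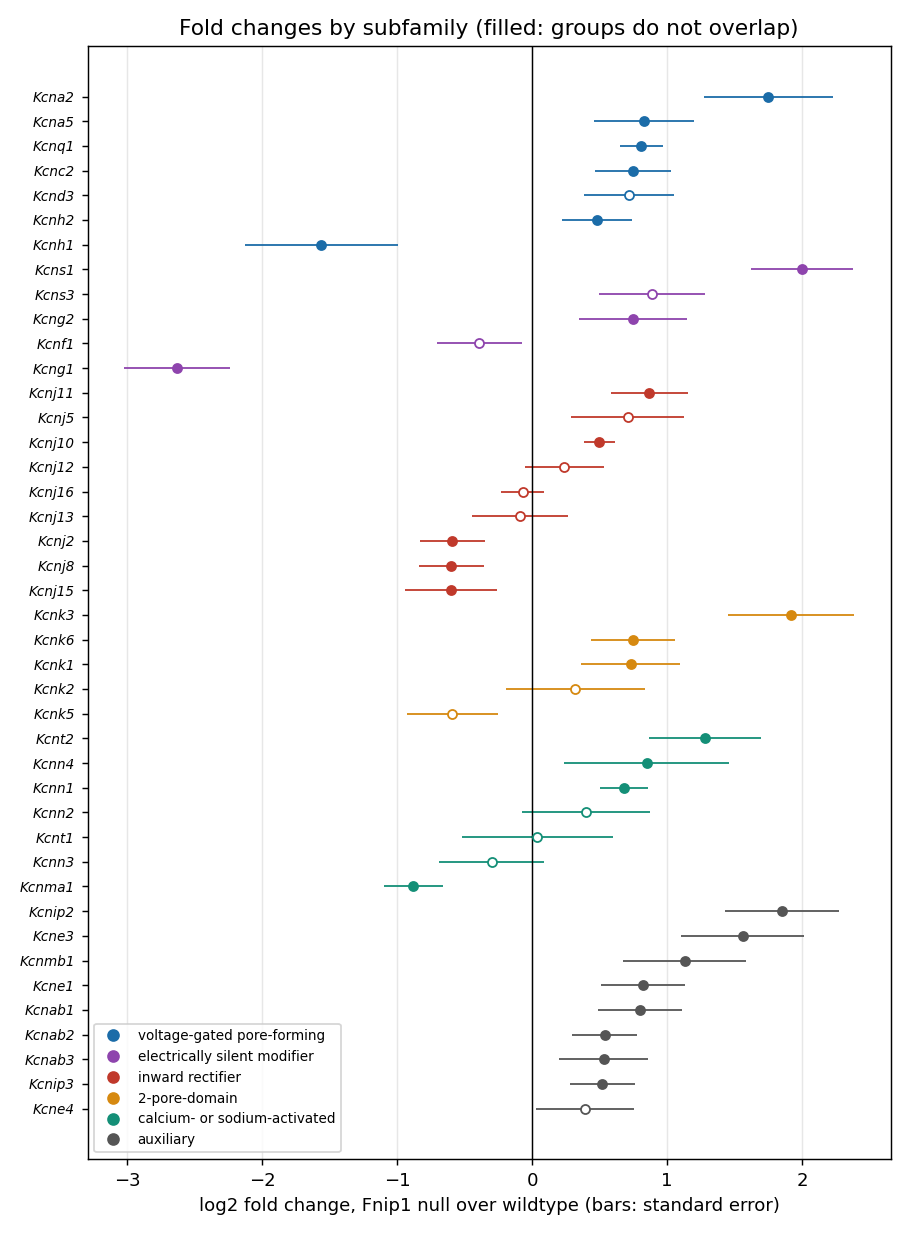
log2 fold change of Fnip1 null over wildtype kidney tissue for 42 of the 44 members tested, ordered by subfamily and fold change, with standard errors as bars; filled points are members for which the 3 Fnip1 null and 2 wildtype mice do not overlap. All 9 auxiliary subunits lie to the right of 0, the 9 inward rectifiers lie on both sides, and Kcng1 at -2.63 is farthest to the left.

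Of the 14 inward rectifiers 9 were tested, and 4 of them had positive and 5 had negative log2 fold changes, with a median of -0.07. The subunits that form the basolateral channels of the tubule differed among themselves. Kcnj15 was at 1450, 885 and 604 normalized CPM in Fnip1 null mice 8637, 9210 and 9121 and at 1490 and 1500 in the wildtype mice. The groups did not overlap, but mouse 8637 nearly reached the wildtype level. The log2 fold change of Kcnj15 was -0.60 (SE 0.343, adjusted p = 0.316 with edgeR's quasi-likelihood test), and without mouse 8637 it was -1.0 (adjusted p = 0.0233 with the same test). Without mouse 9121 it was -0.35 (adjusted p = 0.479, edgeR's quasi-likelihood test). Kcnj16, with which Kcnj15 assembles in the proximal tubule, was at 896, 691 and 679 normalized CPM in the Fnip1 null mice and at 777 and 805 in the wildtype mice, so the groups overlapped (log2 fold change -0.07, SE 0.162, adjusted p = 0.824, edgeR's quasi-likelihood test). The level of Kcnj15 per kb relative to that of Kcnj16 was therefore 1.01, 0.799 and 0.555 in the Fnip1 null mice against 1.19 and 1.16 in the wildtype mice. The summed level of 6 proximal tubule markers had the same order among the Fnip1 null mice, at 9990, 8280 and 7520 normalized CPM. It was 10200 and 11400 in the wildtype mice. None of the 6 was called, and 4 of the 6 had a negative log2 fold change. Slc34a1 was the largest part of this sum. Lrp2 and Slc13a3 did not have this order and were lowest in mouse 9210 (1380 and 691 normalized CPM). Slc5a2 and Slc5a12 were above both wildtype mice in every Fnip1 null mouse. The correlations of the Fnip1 null mice with the wildtype mice over all genes had the same order as Kcnj15. The part of the proximal tubule in the level of Kcnj15 was not tested. In tissue RNA, fewer cells of a type and less RNA in each of these cells cannot be told apart.

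Kcnj10, whose product joins that of Kcnj16 in the basolateral membrane of the distal convoluted tubule and sets the voltage that the salt transporter there responds to, had the opposite direction. Its level was 137, 161 and 164 normalized CPM in the Fnip1 null mice and 111 and 107 in the wildtype mice, with no overlap. Its log2 fold change was 0.50 (SE 0.112), with an adjusted p of 0.0837 by edgeR's quasi-likelihood test and 0.0269 by edgeR's exact test. Per kb, Kcnj10 stood at 0.111, 0.170 and 0.176 of the level of Kcnj16 in the Fnip1 null mice and at 0.104 and 0.0964 in the wildtype mice. The distal convoluted tubule markers also had higher sums in the Fnip1 null mice, 1530, 1740 and 1670 normalized CPM against 1090 and 1280, with 0 of 4 called. Slc12a3, Trpm6 and Calb1 were above both wildtype mice in every Fnip1 null mouse. Pvalb overlapped, at 11.8, 16.9 and 17.9 against 11.9 and 19.6 normalized CPM (log2 fold change -0.02). The part of these cells in the level of Kcnj10 was not tested.

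The promoters of Kcnj10 and Kcnj15, the abundant inward rectifiers whose fold changes had opposite signs, are shown as 250 bases before to 50 after the annotated transcript start (RefSeq, GRCm38.p6, 5′ to 3′ on the gene's strand). Capitals mark matches to 3 motifs searched on both strands. The GC box was searched as GGGCGG. The letters CCAAT were searched as they stand. The TATA box was searched as TATAAA. That of Kcnj10 lies on chromosome 1 at chr1:172340960-172341259 (plus strand), at the first exon of the gene, and that of Kcnj15 at chr16:95257308-95257607 (plus strand).
Kcnj10: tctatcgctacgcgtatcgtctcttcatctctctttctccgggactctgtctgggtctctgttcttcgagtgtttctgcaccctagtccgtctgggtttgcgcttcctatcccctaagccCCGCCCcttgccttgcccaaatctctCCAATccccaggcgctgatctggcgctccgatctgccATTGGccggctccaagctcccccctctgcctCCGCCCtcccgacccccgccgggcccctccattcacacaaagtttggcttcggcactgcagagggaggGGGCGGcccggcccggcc
Kcnj15: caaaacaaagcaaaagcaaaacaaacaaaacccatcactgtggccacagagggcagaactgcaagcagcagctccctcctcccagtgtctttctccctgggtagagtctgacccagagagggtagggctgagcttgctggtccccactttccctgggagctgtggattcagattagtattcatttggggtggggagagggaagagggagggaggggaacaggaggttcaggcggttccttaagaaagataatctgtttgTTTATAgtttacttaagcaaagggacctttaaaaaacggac
The Kcnj10 promoter had 63.7% G and C, 21 CpG dinucleotides, 3 GC boxes and 2 CCAAT boxes. The Kcnj15 promoter had 49.7% G and C, 2 CpG dinucleotides and 1 letter match to TATAAA. This match lay on the opposite strand and after the annotated transcript start. Of 32851 promoters of all genes 35.7% held a GC box, 37.4% a CCAAT box and 13.6% a TATA box, and of the 91 promoters of 66 members these shares were 48.4%, 29.7% and 5.49%. The median content of G and C was 52.7% in all promoters and 58.0% in those of the members. A letter match describes the sequence and does not show that a factor binds there.

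The other inward rectifiers were present at low levels. Kcnj8, the pore of the ATP-sensitive channel of vascular smooth muscle and pericytes, was at 5.42, 5.29 and 7.60 normalized CPM in the Fnip1 null mice and at 10.8 and 7.78 in the wildtype mice, with the groups separated by a narrow gap (log2 fold change -0.60, SE 0.241, adjusted p = 0.189, edgeR's quasi-likelihood test). Abcc9, the sulphonylurea receptor that pairs with Kcnj8, had a log2 fold change of -0.50 with overlapping groups. Kcnj11, the pore of the ATP-sensitive channel of pancreatic beta cells, was at 1.94, 2.56 and 2.22 normalized CPM in the Fnip1 null mice and 1.18 and 1.26 in the wildtype mice, a log2 fold change of 0.87 (adjusted p = 0.141, edgeR's quasi-likelihood test). Kcnj2, which sets the resting voltage of heart and skeletal muscle, was lower in every Fnip1 null mouse (3.21 to 4.13 normalized CPM) than in the wildtype mice (4.54 and 6.46), with a log2 fold change of -0.59 and an adjusted p of 0.198 by edgeR's quasi-likelihood test. Kcnj5, Kcnj12 and Kcnj13 overlapped between the groups, with log2 fold changes of 0.71, 0.24 and -0.09. The sum of the 6 smooth muscle and pericyte markers was 113, 212 and 142 normalized CPM in Fnip1 null and 89.0 and 87.1 in wildtype mice, and the part of these cells in the level of Kcnj8 was not tested.

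**Figure D3:**
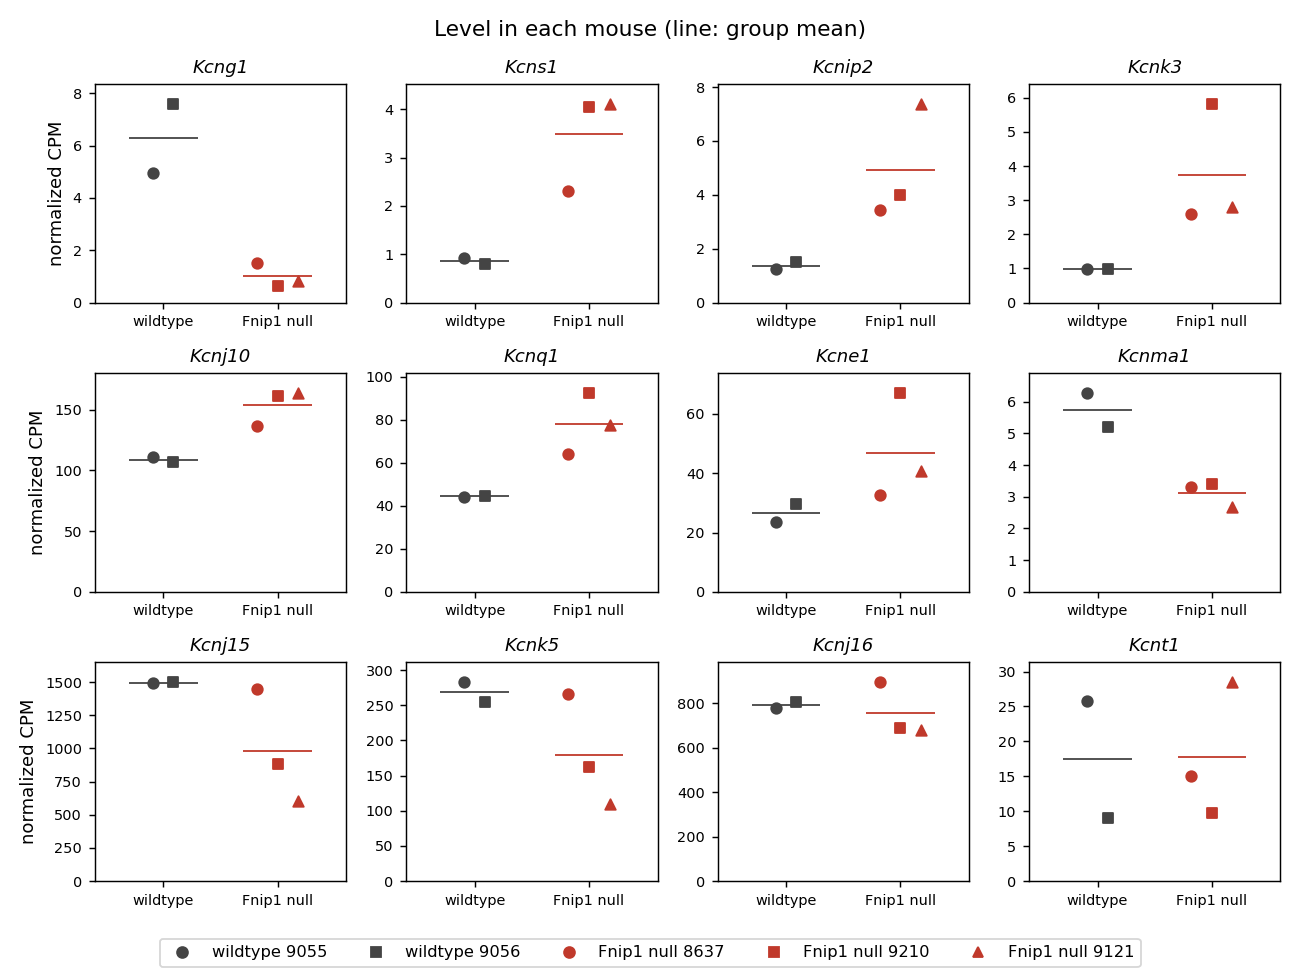
Normalized CPM of 12 members in each mouse, 1 panel per gene with its own linear axis from 0; circles, squares and triangles are single mice and lines are group means. The groups do not overlap except for Kcnk5, Kcnj16 and Kcnt1; Fnip1 null mouse 8637 (red circle) is the Fnip1 null mouse nearest to wildtype for Kcng1, Kcns1, Kcnip2, Kcnk3, Kcnj10, Kcnq1, Kcne1 and Kcnj15.

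Of the 14 members for 2-pore-domain leak channels 5 were tested, 4 with positive and 1 with negative log2 fold changes. Kcnk5, an alkali-activated leak channel of the proximal tubule with a role in bicarbonate recovery, had the negative value. It was at 266, 162 and 109 normalized CPM in Fnip1 null mice 8637, 9210 and 9121 and at 283 and 255 in the wildtype mice, where mouse 8637 lay between the wildtype mice. The log2 fold change was -0.59 (SE 0.338, adjusted p = 0.323) with all mice and -0.98 (adjusted p = 0.0227) without mouse 8637, and it was -0.33 (adjusted p = 0.462) without mouse 9121, all with edgeR's quasi-likelihood test. Kcnk5 thus had the same order among the Fnip1 null mice as Kcnj15 and the sum of the proximal tubule markers, though not each of these markers. This order was not particular to them. Over all genes the correlations with the wildtype mice were 0.988 and 0.986 for mouse 8637, 0.975 and 0.970 for mouse 9210 and 0.966 and 0.957 for mouse 9121. The part of the proximal tubule was not tested. Kcnk1, a weakly conducting leak channel found along the nephron, was at 52.5, 57.8 and 120 normalized CPM in the Fnip1 null mice and 51.6 and 41.1 in the wildtype mice. Mouse 9121 alone set most of this difference, since the log2 fold change was 0.73 (SE 0.370, adjusted p = 0.272, edgeR's quasi-likelihood test) with it and 0.25 without it. Mouse 9121 also had the highest sum of 4 thick ascending limb markers, 10100 normalized CPM against 6490 to 7560 in the other 4 mice. None of the 4 was called. Umod and Slc12a1 were highest in mouse 9121, but Cldn16 was highest in mouse 9210 (13.9 against 11.0 normalized CPM). Cldn10 in mouse 9121 (186 normalized CPM) was below both wildtype mice (215 and 200). Mouse 9121 was also the mouse with high Xist. The part of these cells or of sex in the level of Kcnk1 was not tested.

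Kcnk3, an acid-sensitive leak channel of vascular smooth muscle, adrenal and nerve cells, had the largest fold change of this subfamily. Its level was 2.59, 5.83 and 2.80 normalized CPM in the Fnip1 null mice and 0.994 and 0.972 in the wildtype mice, so the lowest Fnip1 null mouse was well above both wildtype mice. For Kcnk3 the log2 fold change was 1.92 (SE 0.466), with an adjusted p of 0.0955 by edgeR's quasi-likelihood test, 0.00651 by edgeR's exact test and 0.00759 by DESeq2, and 1.45 without mouse 9210. Mouse 9210 also had the highest smooth muscle and pericyte sum (212 normalized CPM), with 0 of 6 of these markers called. The adrenal sum was 3.77 to 4.70 normalized CPM in Fnip1 null and 2.46 and 4.10 in wildtype mice with Cyp11b2 at 0 counts in every mouse, and the nerve sum was 3.12 to 4.40 against 2.29 and 2.30 with Snap25 and Elavl4 at 0. The part of these cells in the level of Kcnk3 was not tested. Kcnk6, a relative of Kcnk1, was above both wildtype mice (1.20 and 1.43 normalized CPM) in every Fnip1 null mouse (1.77 to 2.68), a log2 fold change of 0.75 (adjusted p = 0.200, edgeR's quasi-likelihood test). Kcnk2, a stretch-sensitive leak channel, overlapped between the groups (log2 fold change 0.32).

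Among the 30 members for voltage-gated pore-forming subunits 9 were tested, of which 7 had a positive log2 fold change, and the median was 0.72. Kcnq1 was the only one of high level. It encodes the pore of the slow delayed rectifier of the heart and lies in the apical membrane of the proximal tubule, and its partner Kcne1 encodes the small membrane subunit that slows its opening. Kcnq1 was at 63.9, 92.6 and 77.8 normalized CPM in the Fnip1 null mice and at 44.3 and 44.7 in the wildtype mice, so that even the lowest Fnip1 null mouse was clearly above both. Its log2 fold change was 0.81 (SE 0.161), with an adjusted p of 0.0743 by edgeR's quasi-likelihood test, 0.00170 by edgeR's exact test and 0.00121 by DESeq2. With each mouse left out in turn it stayed between 0.67 and 0.94. Kcnq1 overlaps the antisense transcript Kcnq1ot1, which had 52 to 95 counts in a mouse against 713 to 1557 for Kcnq1, and reads from the 2 strands could not be told apart.

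Kcne1 was at 32.7, 67.1 and 40.6 normalized CPM in the Fnip1 null mice and 23.5 and 29.6 in the wildtype mice. All Fnip1 null mice were above both wildtype mice, and mouse 9210 was far above the rest. For Kcne1 the log2 fold change was 0.82 (SE 0.311, adjusted p = 0.177, edgeR's quasi-likelihood test), and it was 0.46 without mouse 9210. Both genes thus had nearly the same fold change, and the level of Kcne1 per kb relative to Kcnq1 overlapped between the groups, at 0.652, 0.923 and 0.664 in the Fnip1 null mice and 0.675 and 0.844 in the wildtype mice. Among the proximal tubule markers, whose sum was lower in the Fnip1 null mice, Slc5a2 and Slc5a12 were higher in every Fnip1 null mouse (365 to 469 and 457 to 722 normalized CPM) than in the wildtype mice (340 and 359, and 356 and 398), and the part of these cells in the levels of Kcnq1 and Kcne1 was not tested.

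Most other voltage-gated channels were sparse. Kcnh1, an ether-a-go-go channel, was at 1.0, 0.595 and 2.22 normalized CPM in the Fnip1 null mice and 2.49 and 5.09 in the wildtype mice. The gap between the groups was small beside the spread of the wildtype mice, and the log2 fold change was -1.56 (SE 0.565, adjusted p = 0.164, edgeR's quasi-likelihood test), or -0.95 without wildtype mouse 9056. Kcna2, Kcna5, Kcnc2 and Kcnh2 had all Fnip1 null mice above the wildtype mice, with log2 fold changes from 0.48 to 1.75, and Kcnd3 overlapped between the groups (0.72). The value of 1.75 is that of Kcna2, which was tested only because of its counts in the Fnip1 null mice.

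The largest fold changes in both directions were those of electrically silent modifiers, of which 5 of 10 were tested. Kcng1 and Kcns1 encode modifiers that assemble with Kcnb-type subunits and shift the voltage at which the shared channel opens and closes. Kcng1 was at 1.53, 0.654 and 0.845 normalized CPM in the Fnip1 null mice (26, 11 and 16 counts) and at 4.97 and 7.61 in the wildtype mice (80 and 133 counts). The wildtype mice were more than 3 times as high as any Fnip1 null mouse. The log2 fold change of Kcng1 was -2.63 (SE 0.393), with an adjusted p of 0.0501 by edgeR's quasi-likelihood test, 2.71e-07 by edgeR's exact test and 4.11e-06 by DESeq2. Without mouse 8637 the adjusted p was 0.00726, without mouse 9121 it was 0.0485 and without mouse 9210 it was 0.186, each by the quasi-likelihood test.

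Kcns1 went the other way, at 2.30, 4.04 and 4.12 normalized CPM in the Fnip1 null mice (39, 68 and 78 counts) and 0.932 and 0.801 in the wildtype mice (15 and 14 counts). Its lowest Fnip1 null value was over 2 times its highest wildtype value. For Kcns1 the log2 fold change was 2.00 (SE 0.379), with an adjusted p of 0.0688 by edgeR's quasi-likelihood test, 0.00047 by edgeR's exact test and 0.00159 by DESeq2. Per kb, the level of Kcns1 relative to Kcng1 was 2.49, 10.3 and 8.10 in the Fnip1 null mice and 0.312 and 0.175 in the wildtype mice. In the wildtype mice Kcng1 was the more abundant of the 2 modifiers, and in the Fnip1 null mice Kcns1 was. Because these 2 members had the largest fold changes each way, their ratio had to differ between the groups and adds no evidence. Kcns3 (log2 fold change 0.89) and Kcnf1 (-0.39) overlapped between the groups, and Kcng2 (0.75) did not.

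Of the 8 members for calcium- or sodium-activated channels 7 were tested. Kcnma1 encodes the large-conductance calcium-activated channel, which secretes potassium in the collecting duct when flow is high and relaxes smooth muscle. It was at 3.30, 3.39 and 2.69 normalized CPM in the Fnip1 null mice and 6.28 and 5.21 in the wildtype mice, with no overlap (log2 fold change -0.88, SE 0.219). The adjusted p of Kcnma1 was 0.0989 by edgeR's quasi-likelihood test, 0.0233 by edgeR's exact test and 0.0445 by DESeq2. Kcnmb1, the auxiliary subunit that raises the calcium sensitivity of this channel in smooth muscle, had the opposite direction, at 1.47, 2.38 and 1.90 against 1.24 and 0.515 normalized CPM (log2 fold change 1.13, SE 0.454, adjusted p = 0.190, edgeR's quasi-likelihood test). The value of Kcnmb1 turned on the wildtype mice, with a log2 fold change of 1.88 without mouse 9055 and 0.62 without mouse 9056. The sums of the smooth muscle markers (above) and of the 5 principal cell markers, 497 to 663 normalized CPM in Fnip1 null and 402 and 410 in wildtype mice with 0 of 5 called, were higher in Fnip1 null mice. The principal cell marker Avpr2 was lower in each of them than in the wildtype mice (20.1 and 21.4 normalized CPM), and the part of these cells in the level of Kcnma1 was not tested.

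Kcnn1, a small-conductance calcium-activated channel, had 170, 142 and 182 counts in the Fnip1 null mice and 104 and 91 in the wildtype mice, or 9.36 ± 0.818 (SD, n = 3) against 5.83 ± 0.888 (SD, n = 2) normalized CPM. The spread within each group was small, and the log2 fold change was 0.68 (SE 0.179), with an adjusted p of 0.105 by edgeR's quasi-likelihood test, 0.0410 by edgeR's exact test and 0.0495 by DESeq2. Its relatives Kcnn2, Kcnn3 and Kcnn4 had log2 fold changes of 0.40, -0.30 and 0.85, of which only Kcnn4 had groups that did not overlap. Kcnt2, a sodium-activated channel, was at 1.18, 1.84 and 2.01 normalized CPM in the Fnip1 null mice and 0.870 and 0.515 in the wildtype mice (log2 fold change 1.28, adjusted p = 0.138, edgeR's quasi-likelihood test). Kcnt1, the other sodium-activated channel, varied within the groups and not between them, at 15.1, 9.69 and 28.5 normalized CPM in the Fnip1 null mice and 25.8 and 9.09 in the wildtype mice (log2 fold change 0.04, SE 0.557). Its 2 highest mice, 9121 and 9055, were also those with the highest levels of the inner medulla marker Slc14a2 (99.7 and 81.6 normalized CPM). The other inner medulla markers, Aqp4 and Fxyd4, were also highest in these mice, but in the wildtype mice they differed far less (37.5 against 31.4 and 18.6 against 16.9 normalized CPM). The part of the inner medulla in the level of Kcnt1 was not tested.

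**Figure D4:**
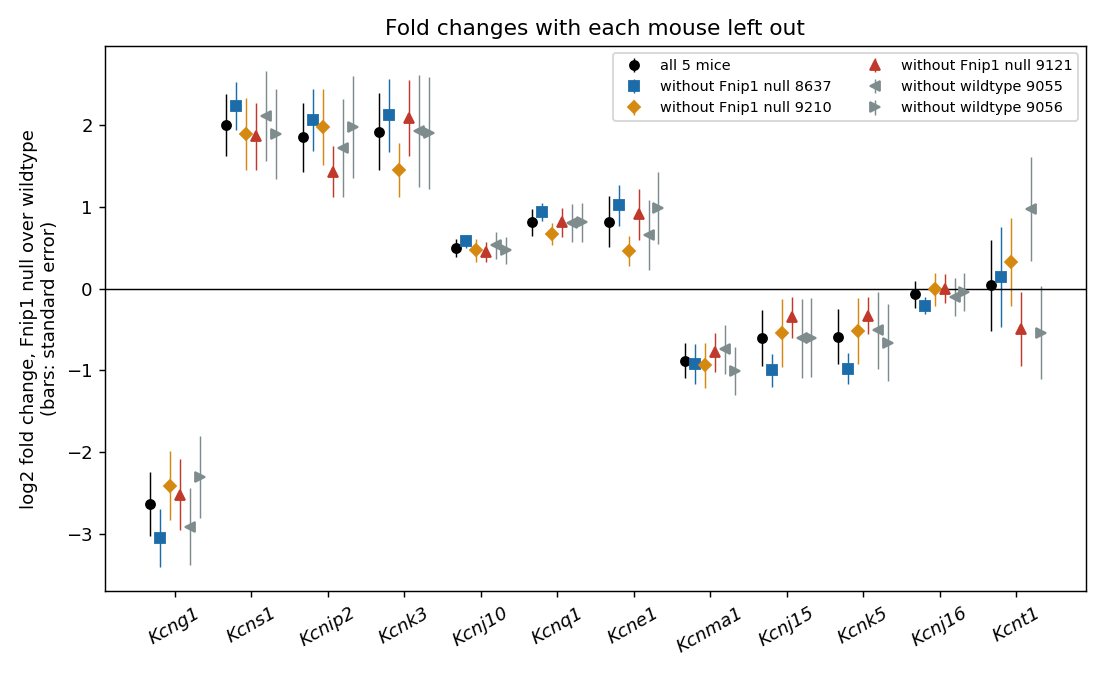
log2 fold change of Fnip1 null over wildtype kidney tissue, with standard errors as bars, for 12 members in the fit of all 5 mice and in fits that leave out 1 mouse. Kcng1, Kcns1, Kcnip2, Kcnk3, Kcnj10, Kcnq1, Kcne1, Kcnma1, Kcnj15 and Kcnk5 keep their direction in all 6 fits, while Kcnt1 ranges from -0.54 to 0.97.

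Auxiliary subunits were the only subfamily in which every tested member, 9 of 15, had a positive log2 fold change, from 0.39 to 1.85 with a median of 0.80, where 50.5% of all genes were positive. In 8 of the 9 the Fnip1 null mice lay above both wildtype mice, as they did for 22.9% of all genes. Kcne3, among the 8, was tested only because of its counts in the Fnip1 null mice. Kcnip2, a calcium-binding protein that brings Kcnd channels to the membrane and shapes the transient outward current of the heart, had the largest value. It was at 3.42, 3.98 and 7.39 normalized CPM in the Fnip1 null mice (58, 67 and 140 counts) and 1.24 and 1.49 in the wildtype mice (20 and 26 counts), again with every Fnip1 null mouse over 2 times as high as both wildtype mice. The log2 fold change was 1.85 (SE 0.423), with an adjusted p of 0.0878 by edgeR's quasi-likelihood test, 0.00335 by edgeR's exact test and 0.00323 by DESeq2, and without mouse 9121 it was 1.43. Kcnd3, the only tested Kcnd gene, had a log2 fold change of 0.72 with overlapping groups. Kcne3 was at 0.884, 0.892 and 1.43 normalized CPM in the Fnip1 null mice and at 0.435 and 0.286 in the wildtype mice (log2 fold change 1.56, SE 0.454, adjusted p = 0.118, edgeR's quasi-likelihood test). Kcnab1, Kcnab2 and Kcnab3, cytoplasmic subunits of Shaker-type channels with the fold of aldo-keto reductases, had log2 fold changes of 0.80, 0.54 and 0.53, and all 3 had groups that did not overlap.

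The promoters of Kcns1 and Kcnip2, which were higher at least 2-fold by the exact test and have an entry among these promoters, are shown in the same way as those above. That of Kcns1 lies at chr2:164171064-164171363 (minus strand) and that of Kcnip2 at chr19:45816014-45816313 (minus strand), both in GRCm38.p6.
Kcns1: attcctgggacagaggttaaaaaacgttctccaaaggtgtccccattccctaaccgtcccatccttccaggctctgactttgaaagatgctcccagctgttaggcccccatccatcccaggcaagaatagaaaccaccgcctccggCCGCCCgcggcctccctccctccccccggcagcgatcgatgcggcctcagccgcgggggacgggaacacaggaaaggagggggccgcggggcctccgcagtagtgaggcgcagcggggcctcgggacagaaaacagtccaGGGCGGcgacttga
Kcnip2: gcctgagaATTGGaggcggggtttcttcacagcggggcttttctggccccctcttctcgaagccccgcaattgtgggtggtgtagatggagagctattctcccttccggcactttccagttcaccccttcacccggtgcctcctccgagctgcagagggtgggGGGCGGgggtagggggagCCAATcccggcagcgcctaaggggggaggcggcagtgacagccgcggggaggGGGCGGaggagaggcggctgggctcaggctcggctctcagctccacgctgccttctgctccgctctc
Both were rich in G and C (64.0% and 67.0%) and held 2 GC boxes each without a TATA box. The Kcnip2 promoter also held 2 CCAAT boxes, and the Kcns1 promoter held none.

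The remaining 47 members did not reach the count filter. Of these, 36 had a count in at least 1 mouse, 18 of them never more than 3 in a mouse, and the highest count of any was 17, for Kcna6 in wildtype mouse 9055. In all 5 mice 11 members had 0 counts, among them Kcna10, Kcnj6, Kcnk9, Kcnk15, Kcnk16, Kcnk18, Kcnmb3, Kcns2, Kcnv1 and Kcnv2, which allows a level of up to 0.158 to 0.186 normalized CPM in a mouse for counting error only. Several members with a known place in the kidney were among the untested ones. Kcna1, which sets the voltage for magnesium uptake in the distal convoluted tubule, had 3 to 11 counts in a mouse, and Kcne2, an auxiliary partner of Kcnq1, had 1 to 3. Kcnmb4 and Kcnmb3, auxiliary subunits of the Kcnma1 channel, had at most 1 count in any mouse. Differences between the genotypes were not detectable for these genes at this depth.

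Some members that follow each other on a chromosome, when only members are considered, differed widely in level, and others did not. Other genes may lie between them. Kcnj9 and Kcnj10 on chromosome 1 are 11.9 kb apart, with mean levels of 0.016 and 25.2 CPM per kb. Kcnj16 and Kcnj2 on chromosome 11 are 38.2 kb apart with mean levels of 195 and 0.807 CPM per kb, and Kcnj15 and Kcnj6 on chromosome 16 are 260 kb apart with 188 CPM per kb and 0 counts. Kcne1 and Kcne2, also on chromosome 16, are 47.9 kb apart with mean levels of 12.0 and 0.0527 CPM per kb. The next member after Kcnk5 on chromosome 14, Kcnk16, lies 79.6 kb away and had 0 counts. In contrast, Kcna3 and Kcna2 on chromosome 3, 63.1 kb apart, had mean levels of 0.0613 and 0.0435 CPM per kb, and Kcna1 and Kcna6 on chromosome 6, 61.9 kb apart, had 0.0711 and 0.1 CPM per kb.

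Potassium channels work with pumps, cotransporters and kinases, and of 42 such partner genes 31 were tested. By edgeR's quasi-likelihood test 0.533% of all genes tested met an FDR of 5% and 2-fold. Of the partners 0 were lower and 1 was higher at both criteria. It was Atp4a, the catalytic subunit of the gastric H,K-ATPase, which in the kidney takes up potassium in the collecting duct. Atp4b, the gene of the beta subunit of this pump, had 0 counts in every mouse. Atp4a was at 138, 217 and 186 normalized CPM in the Fnip1 null mice and 56.4 and 57.9 in the wildtype mice (log2 fold change 1.66, adjusted p = 0.0390, edgeR's quasi-likelihood test). Atp12a, its colonic counterpart, was at 12.6, 42.4 and 33.1 normalized CPM in the Fnip1 null mice and 1.55 and 1.94 in the wildtype mice (log2 fold change 4.06, adjusted p = 0.0501, edgeR's quasi-likelihood test). Both pumps belong to cells of the collecting duct, and the sum of 5 intercalated cell markers was also higher in the Fnip1 null mice, 460, 729 and 601 normalized CPM against 322 and 359, with 1 of 5 called (Atp6v0d2); its part was not tested. The Na,K-ATPase, which loads the cell with the potassium that these channels release, had 0 of its 10 tested genes called, and its beta subunit Atp1b1 had a log2 fold change of 0.08. Among the 7 cation-chloride cotransporters and 10 genes of the WNK kinase pathway, which adjusts the salt cotransporter of the distal convoluted tubule to blood potassium, 0 were called. The smallest adjusted p of these 17 genes was 0.0633, for the kinase Stk39 (log2 fold change 0.72, edgeR's quasi-likelihood test). Of the 6 genes for gamma subunits of the Kcnma1 channel and Kcnd-associated peptidase-like proteins only Lrrc52 was tested, with a log2 fold change of 0.24.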

How the data were processed

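Total RNA of frozen cortical kidney tissue was sequenced by the authors from 5 mice. The authors filtered the reads, aligned them to mm10 with TopHat2 2.1.0 and obtained counts for each gene symbol from HTSeq 0.6.1, per the labels and the methods, so the deposited values are raw counts. HTSeq does not count reads that align to several places or overlap several genes, and rows naming no gene, 39.0 to 42.8% of all reads listed, were left out. Strand was not recorded by the library kit, and the exons of 17 of the 44 members tested overlap a gene on the opposite strand (GENCODE M21, GRCm38), as do those of Kcnab2 a gene on the same strand. Genes below 10 counts in over 2 of the 5 mice were not tested, leaving 13874. In R 4.3.3, edgeR 4.0.16 (limma 3.58.1) normalized the libraries by TMM and compared the genotypes with its quasi-likelihood test, with Benjamini-Hochberg adjustment over all genes tested. A call needed an FDR of 5% and a change of 2-fold. All adjusted p-values come from fits across all genes. With 1 library per mouse, they measure the spread between these mice. Exon lengths are unions of GENCODE M21 exons, matched by symbol for all 91 members. Promoter sequences are from RefSeq, which had entries for 66 members. The tests were checked on simulated data in which 200 genes, all above 1 normalized CPM on average, had a log2 fold change of 2 up or down. At both criteria the quasi-likelihood test found 188 of them with 6 false calls, and DESeq2 found 190 with 10. The exact test found 196 with 20 false calls, and the likelihood ratio test found 196 with 21. Smaller changes, and a mouse unlike the others of its group, were not simulated. The median log2 fold change of the members tested was 0.54, so these numbers do not give the share of such changes that the tests find. DESeq2 1.42.0, edgeR's other tests, other normalizations and filters and leaving out each mouse were tried as alternatives. Members named with values were the 6 with the largest changes each way among those at 1 normalized CPM or more on average and without overlap of the groups, the 8 of highest level per kb and 29 genes known from kidney. Further members were named after their values were seen (Kcnn1, Kcna2, Kcna5, Kcnc2, Kcnd3, Kcnh2, Kcnn2, Kcnn3, Kcns3, Kcnf1, Kcng2, Kcnj12, Kcnab2, Kcnab3 and untested ones). Values of some single genes are not reported here. The members and gene lists were chosen with earlier results of these data known.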

Additional observations from a re-analysis of the deposited data

How the results depend on the processing

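In the main fit 0 members were called at an FDR of 5% and 2-fold and 0 at the FDR alone (0.533% and 0.735% of all genes). At both criteria there were 4 with the exact test and with DESeq2, 6 with edgeR's likelihood ratio test and 1 without the filter on low counts. At the FDR alone there were 8 with each of the former, 10 and 1. Over all genes, 4.11% with the exact test, 3.47% with DESeq2 and 4.53% with the likelihood ratio test met both criteria. At the FDR alone these shares were 9.82%, 10.2% and 10.6%. Leaving out 1 mouse at a time gave 0 to 5 members at both criteria and 0 to 10 at the FDR alone, the highest without Fnip1 null mouse 8637 (6.71% and 19.9% of all genes), while without mouse 9121 only Kcng1 was called (0.973% and 1.37% of all genes). Without the filter 0.812% and 1.33% of all genes passed. Called partners numbered 1 in the main fit, 3 with each of DESeq2, the likelihood ratio and the exact test, 2 without the filter and 0 to 5 with 1 mouse left out. The median log2 fold change of the members was 0.54, ran from 0.33 to 0.79 with 1 mouse left out, and was 0.71 with library size only, where the median of all genes moved to 0.17. Among the members tested, 9 fold changes of 6 members turned direction or reached 0.00: Kcnj13 to 0.07 with library size only and to 0.31 without wildtype mouse 9055, Kcnj16 to 0.09 with library size only and to 0.00 without mouse 9121, Kcnk2 to -0.18 without wildtype mouse 9056, Kcnn2 to -0.04 without mouse 9121, Kcnn3 to 0.08 without wildtype mouse 9055, and Kcnt1 to -0.49 without mouse 9121 and to -0.54 without wildtype mouse 9056. With 1 mouse left out the named kidney genes ranged from -0.42 to 0.31 (Kcnj13), -0.21 to 0.00 (Kcnj16), -0.18 to 1.03 (Kcnk2) and -0.54 to 0.97 (Kcnt1). The changes with library size only go with the shift of all genes by 0.17, and the cause of the others was not tested. Fits with 1 wildtype mouse assume that it varies like the Fnip1 null mice. No paired analysis was made because the sample labels give only a number for each mouse and no pairing of mice between the groups. Members at a few CPM rest on few counts per mouse, which limits the precision of their fold changes.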
